A study of Mus musculus with 6 samples.

Results

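The 49 genes described here encode the enzymes of fatty acid oxidation in mitochondria and peroxisomes, ketone body enzymes, carnitine acyltransferases, acyl-CoA thioesterases and peroxins. They were taken by gene symbol from a liver RNA-seq table of 31950 genes, and all 49 were found in it. RNA came from the livers of 3 WT and 3 β-cateninΔ(ex3)/+ mice, all C57BL/6 and labelled as 8 weeks old, with 1 library per liver. The β-cateninΔ(ex3)/+ mice carry 1 allele of the β-catenin gene Ctnnb1 that lacks exon 3, the part that encodes the residues whose phosphorylation marks β-catenin for degradation, so that the protein stays active. The study's methods describe deletion of this exon in hepatocytes by an albumin-driven Cre, by a tamoxifen-induced form of it and by a Cre adenovirus, each in separate mice. Which of these was used for the sequenced livers is not stated directly. For livers, the study writes β-cateninΔ(ex3)/+ for the tamoxifen-induced mice, and its mice with constitutive albumin-driven Cre died before 8 weeks of age. Whether the WT mice received tamoxifen or Cre, and the sex of the mice, are not given in the sources used here.

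Fatty acids are activated to acyl-CoA, carried into mitochondria on carnitine, and shortened by a repeated cycle of dehydrogenation, hydration, a second dehydrogenation and thiolysis, which is the β-oxidation spiral. Peroxisomes run a cycle of their own on very long, branched and dicarboxylic acids, and peroxins build the organelle and import its enzymes. In the fasted liver the acetyl-CoA from β-oxidation is turned into ketone bodies, and many genes of these pathways are known targets of the nuclear receptor PPARα.

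The promoter side of 4 genes is shown first, because they carry the contrast described below. They are the pair with the largest increase and the pair with the largest decrease among the 41 of the 49 genes that had an upstream window in RefSeq, on build GRCm38.p6. The stretches lie directly upstream of the gene starts in the expression table. They are given 5′ to 3′ on the strand of the gene, with a CTTTGAT match, the core to which TCF partners of β-catenin are known to bind, in capitals. The Ehhadh stretch is chr16:21787808-21788057 on the minus strand, the Acot1 stretch is chr12:84009252-84009489 on the plus strand, and the Bdh1 stretch is chr16:31422047-31422279 on the plus strand. The last one is the whole interval between the divergently transcribed genes Hadha and Hadhb, chr5:30155163-30155247, on the plus strand.
Ehhadh: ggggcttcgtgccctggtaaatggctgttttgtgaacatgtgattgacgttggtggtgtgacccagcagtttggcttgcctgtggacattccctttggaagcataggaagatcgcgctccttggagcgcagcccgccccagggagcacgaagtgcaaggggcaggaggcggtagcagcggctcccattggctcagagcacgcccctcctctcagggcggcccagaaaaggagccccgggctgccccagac
Acot1: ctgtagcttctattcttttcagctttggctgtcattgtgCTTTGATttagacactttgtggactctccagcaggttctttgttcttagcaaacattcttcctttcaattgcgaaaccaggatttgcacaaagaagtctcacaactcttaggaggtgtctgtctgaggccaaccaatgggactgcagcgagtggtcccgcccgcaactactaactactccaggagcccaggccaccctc
Bdh1: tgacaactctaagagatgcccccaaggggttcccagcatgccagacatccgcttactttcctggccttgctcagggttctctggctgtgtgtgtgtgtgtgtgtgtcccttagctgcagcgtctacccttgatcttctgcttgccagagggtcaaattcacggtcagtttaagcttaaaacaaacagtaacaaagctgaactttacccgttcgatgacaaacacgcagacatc
Hadha-Hadhb: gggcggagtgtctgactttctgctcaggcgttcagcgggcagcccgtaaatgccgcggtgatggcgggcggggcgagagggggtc
The interval between Hadha and Hadhb is 85 bases long, and both encode subunits of 1 enzyme complex. Over the 250 bases upstream, CTTTGAT on either strand was found in 1 of the 41 genes, Acot1, or 2.44%, against 3.72% of 27025 genes with a window. The nuclear receptor half-site AGGTCA on either strand was found in 7 of the 41, or 17.1%, against 15.8% of all genes. These 7 were Acadm, Acadvl, Acot4, Acot12, Cpt1a, Echs1 and Scp2. An exact direct repeat of that half-site with 1 base between its copies, the strict form of the DR1 element, was found in 0 of the 41. It was found in 0.0407% of all genes, which is too rare for the 0 to describe these genes. A match describes the letters in this window and is not a measured binding site.

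Levels are FPKM, that is, fragments scaled by transcript length and by how many were mapped in that library. The depth was estimated from the steps between low values as 24.4 to 24.7 M fragments in WT and 16.96 to 19.55 M in mutant libraries. The livers expressed hepatocyte genes, with Alb at 39620 to 43340 FPKM in WT and 24720 to 25010 FPKM in β-cateninΔ(ex3)/+ livers. The known β-catenin targets Glul, Oat, Axin2, Sp5 and Lgr5 were higher in every mutant liver, and Cyp2e1 was lower. Xist was at 20.3 to 22.2 FPKM in WT and at 0 to 0.0146 FPKM in mutant livers, while the Y-linked Eif2s3y was at 9.20 to 9.94 FPKM in mutant and at most 0.0169 FPKM in WT livers, so sex and genotype cannot be told apart in any value below. H19, Igf2 and Afp, which are known from the fetal and newborn liver, were at 2320 to 2374, 803 to 847 and 601 to 612 FPKM in the WT livers labelled as 8 weeks old. In the mutant livers H19 was at 0.0107 to 0.048 FPKM, Igf2 was listed at 0 and Afp was at 2.38 to 2.81 FPKM, so that the WT levels of all 3 go against an age of 8 weeks. A difference in age between the groups, or an error in the labels of the WT livers, therefore cannot be told apart from genotype in any difference below. Of 7 hepatocyte markers 3 were higher, 3 lower and 1 not called, summing to 71570 to 74960 FPKM in WT and 38150 to 38450 FPKM in mutant livers. Most of this sum came from the 3 that were lower, Alb, Ttr and Apoa1. Of 6 Kupffer cell markers 5 were higher and 1 lower, summing to 200.4 to 206 FPKM in WT and 457 to 467 FPKM in mutant livers. All 6 stellate cell markers were lower, with sums of 84.0 to 87.0 and 24.1 to 27.0 FPKM, and so were all 6 endothelial markers, with sums of 68.6 to 69.9 and 49.3 to 50.5 FPKM. Of 4 tested cholangiocyte markers 2 were lower and 2 not called, with sums of 39.6 to 43.1 FPKM in WT and 18.5 to 19.3 FPKM in mutant livers. Most of this sum was Spp1, with means of 36.7 FPKM in WT and 15.3 FPKM in mutant livers. The means of the 2 not called went from 2.51 to 1.94 FPKM for Krt19 and from 0.528 to 0.811 FPKM for Sox9. Of 4 tested lymphocyte markers 2 were lower and 1 higher, with sums of 15.6 to 17.1 and 7.56 to 8.32 FPKM. The 5 adipocyte markers, Ucp1, Adipoq, Lep, Plin1 and Retn, summed to 0 to 0.0942 FPKM in WT and to 15.2 to 16.4 FPKM in mutant livers, and the 4 that were tested were higher. By the same call, 37.4% of all genes tested were higher and 19.6% lower. The part of these markers in the results was not tested. In whole liver, fewer cells of a type and less RNA per cell cannot be told apart.

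Most of these genes were lower in β-cateninΔ(ex3)/+ than in WT livers, with the largest decreases in the ketone body enzymes, 14 of 15 genes of the mitochondrial spiral lower, and the largest increase on the log2(FPKM + 1) scale in the peroxisomal bifunctional enzyme Ehhadh. At an adjusted p under 0.05 and a fold change of at least 2, taken from limma on log2(FPKM + 1), 11 of the 49 were lower, against 4.52% of the 13243 genes tested, and 3 were higher, against 8.17%. The 11 were Acat1, Bdh1, Hadhb, Cpt1a, Hadh, Acadl, Decr2, Crot, Eci2, Decr1 and Etfa. The 3 were Ehhadh, Acot1 and Acsl4. At an adjusted p under 0.05 with any fold change, 29 were lower, against 19.6% of all genes tested, and 10 were higher, against 37.4%. The limma adjusted p of these 39 genes lay between 4.09e-08 and 0.036. The WT and mutant livers did not overlap in 30 genes that were lower, against 23.0%, and in 10 that were higher, against 43.1%. The median log2 fold change of the 49 was -0.32, and that of all genes tested was 0.14.

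**Figure D1:**
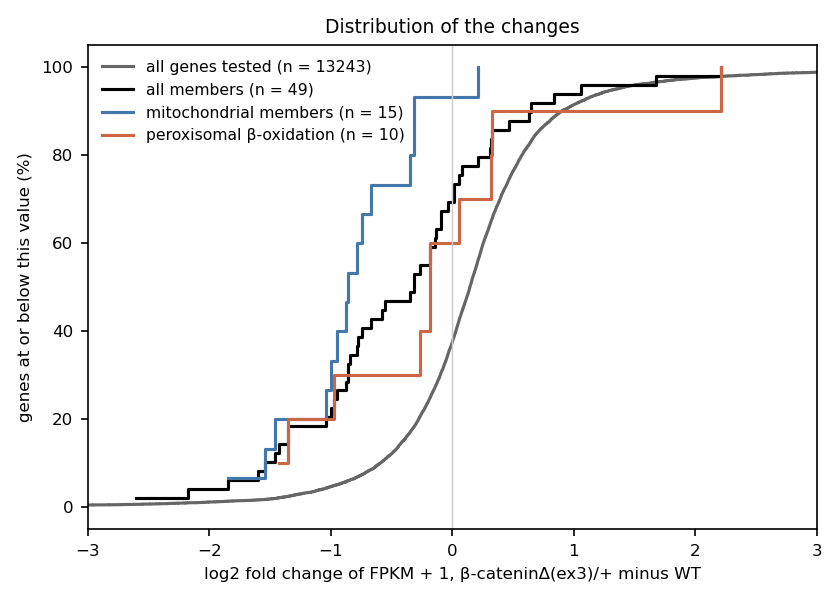
Share of genes (%) at or below each log2 fold change of FPKM + 1, β-cateninΔ(ex3)/+ minus WT, for the 13243 genes tested, the 49 genes, the 15 of the mitochondrial lists and the 10 of peroxisomal β-oxidation. The mitochondrial curve lies to the left of the others over most of its height with a median of -0.86, and the peroxisomal curve has its median at -0.18 with 1 gene, Ehhadh, far to the right.

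Median-ratio scaling and quantile normalization of the libraries moved the median of all genes by -0.12 and -0.16. The 49 genes then gave 16 and 19 lower and 2 and 2 higher past both thresholds, with Acsl4 no longer among the higher ones. Over all genes these scalings called 5.57% and 6.13% lower and 6.57% and 6.02% higher. Cpt2, Scp2, Pex14 and Pex19, which did not pass the test without scaling, were then called lower under both, with log2 fold changes from -0.21 for Cpt2 under median-ratio scaling to -0.87 for Pex19 under quantile normalization. With a pseudocount of 0.1 and no scaling, 12 of the 49 were lower past both thresholds, against 7.54% of all genes tested. At that pseudocount 3 were higher, against 12.9%. Together the 49 genes took up 1.15% to 1.16% of all FPKM in WT livers and 0.735% to 0.764% in mutant livers.

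**Figure D2:**
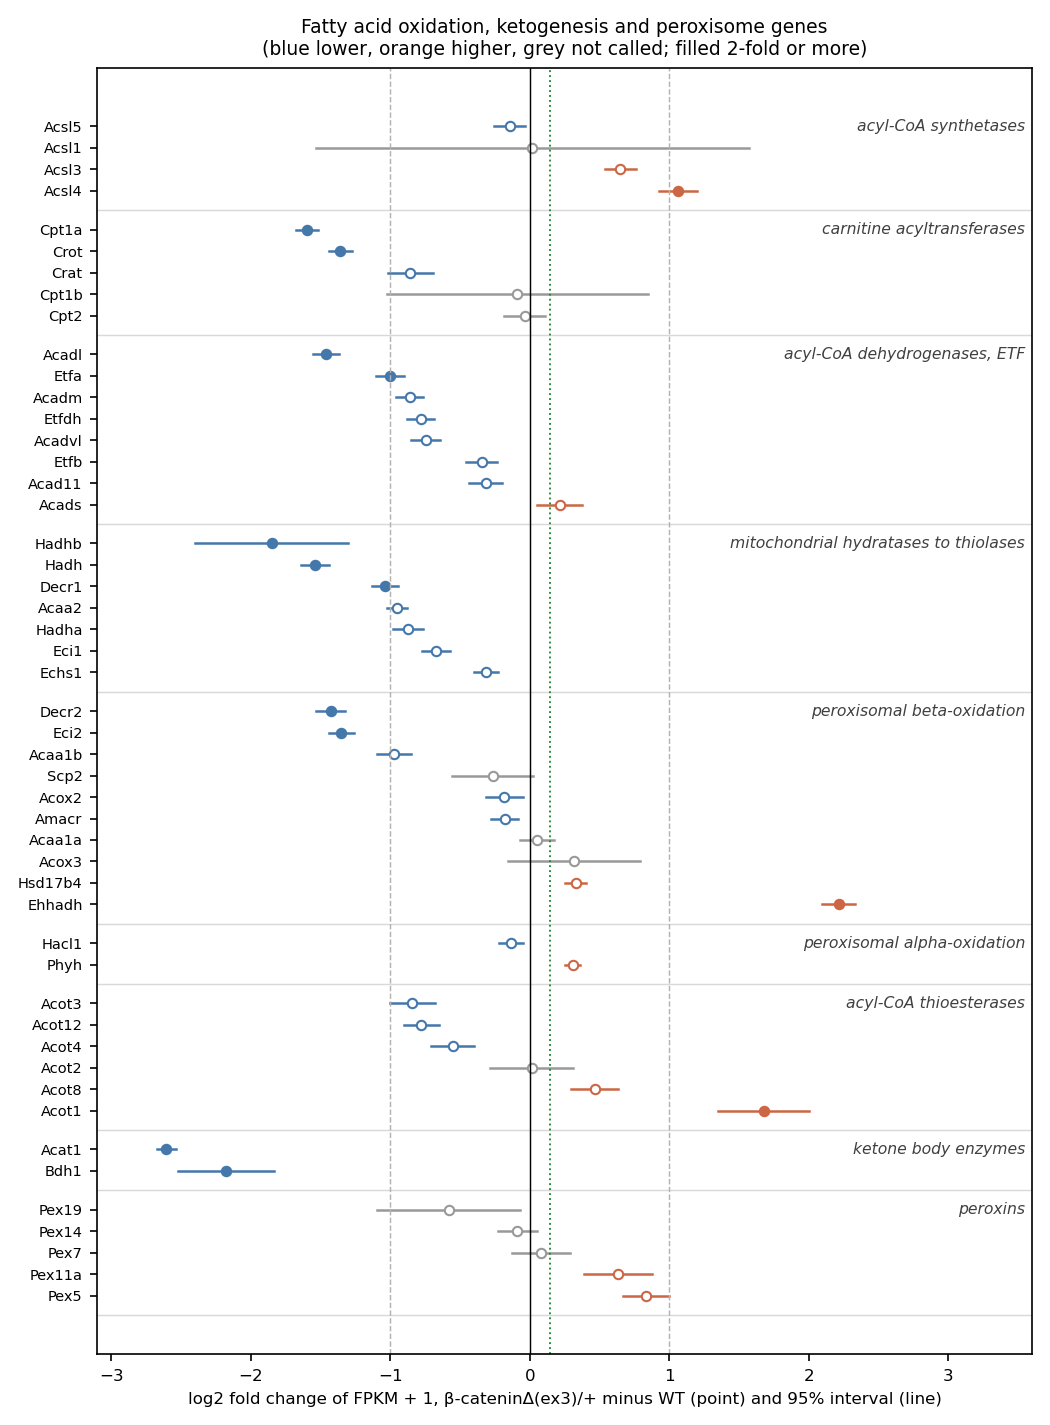
Log2 fold change of FPKM + 1 (x axis, β-cateninΔ(ex3)/+ minus WT, points with 95% intervals) of each of the 49 genes, grouped by role; filled points passed both thresholds, open coloured points the adjusted p alone, grey points neither, dashed lines stand at a 2-fold change and the dotted line at the median of all genes tested, 0.14. Acat1 and Bdh1 stand lowest at -2.61 and -2.18, and Ehhadh stands highest at 2.22.

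Both ketone body enzymes among the 49 fell, Acat1 to 0.162 and Bdh1 to 0.217 of the WT mean. Acat1, the mitochondrial acetoacetyl-CoA thiolase that joins acetyl-CoA units ahead of ketogenesis, was at 360.0, 369 and 364 FPKM in WT livers 1 to 3 and at 59.3, 59.6 and 58.1 FPKM in mutant livers 1 to 3. This was the largest decrease among the 49, with a log2 fold change of -2.61 (SE 0.028, the standard error; limma adjusted p = 4.09e-08). Acat1 lies on chromosome 9 from 53580522 to 53610382. Bdh1, which converts acetoacetate to β-hydroxybutyrate, was at 209.5, 275 and 215 FPKM in WT and 46.9, 46.1 and 59.2 FPKM in mutant livers. WT liver 2 was the highest and the groups lay far apart, with a log2 fold change of -2.18 (SE 0.14, limma adjusted p = 5.09e-05). The summed FPKM of the pair was 569 to 645 in WT and 106 to 117 in mutant livers, 5.45-fold lower. In the order of mean levels among the 49 genes, Acat1 moved from place 5 in WT to place 13 in mutant livers and Bdh1 from place 7 to place 18.

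**Figure D3:**
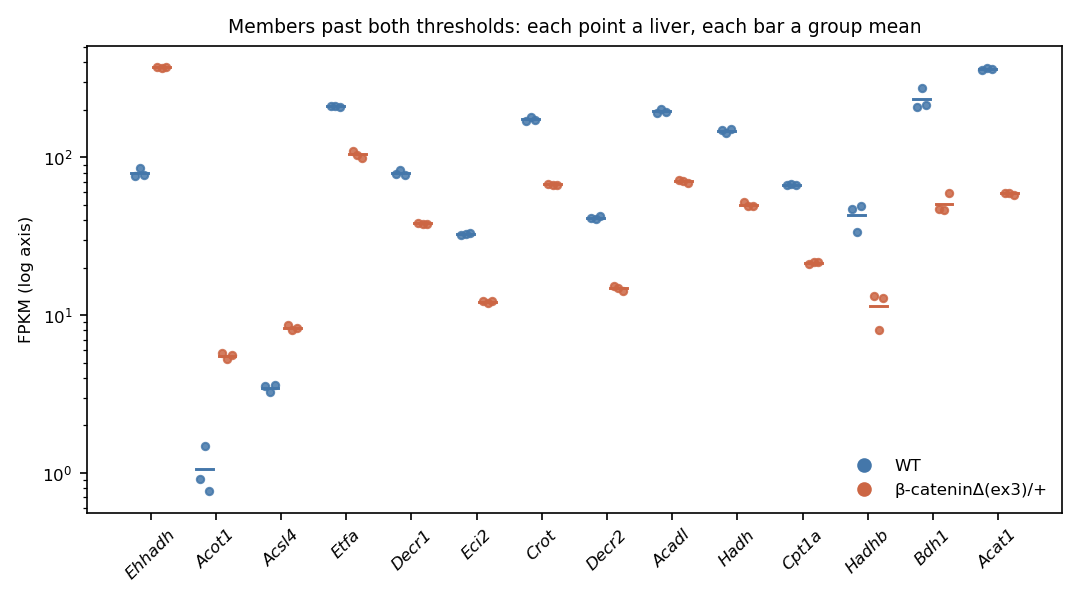
FPKM (log axis) of the 14 genes that passed both thresholds, 1 point per liver with a bar at each group mean (n = 3 per group), ordered by log2 fold change. The WT and mutant livers are apart for each of the 14, from Ehhadh with a WT mean of 79.5 and a mutant mean of 373 FPKM to Acat1 with 364 and 59.0 FPKM.

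Of the 5 carnitine acyltransferases, 3 fell, against 19.6% of all genes tested, and 2 did not pass the test. Cpt1a, the liver carnitine palmitoyltransferase of the outer mitochondrial membrane and the main point of control of fatty acid entry, was at 66.8, 67.3 and 66.8 FPKM in WT and 21.04, 21.6 and 21.8 FPKM in mutant livers. The livers of a group were close together, and the log2 fold change was -1.60 (SE 0.033, limma adjusted p = 3.95e-07). Cpt2, which hands the acyl group back to CoA on the inner membrane, was at 41.0, 43.2 and 39.0 FPKM in WT and 38.9, 42.9 and 38.5 FPKM in mutant livers. These groups overlapped, and the 95% interval of the log2 fold change of Cpt2 was -0.18 to 0.11 (limma adjusted p = 0.647), against -0.21 under median-ratio scaling (limma adjusted p = 0.0388) and -0.29 under quantile normalization (limma adjusted p = 0.0189). Crot, the peroxisomal carnitine octanoyltransferase, was at 169, 180.2 and 173 FPKM in WT and 67.8, 67.1 and 67.1 FPKM in mutant livers, a log2 fold change of -1.36 (SE 0.034, limma adjusted p = 9.57e-07). Crat, the short-chain carnitine acetyltransferase, fell from 14.0 ± 1.10 to 7.29 ± 0.149 FPKM (mean ± SD, n = 3), a log2 fold change of -0.86. Cpt1b, the muscle form, was at 1.23, 0.0204 and 1.18 FPKM in WT and 1.25, 0.566 and 0.169 FPKM in mutant livers, with overlapping groups. Of its exon bases 81.4% are shared on the same strand with Gm44502, which was at 0.224 to 2.82 FPKM in WT and 0 to 4.17 FPKM in mutant livers, so the level of Cpt1b is uncertain. Skeletal muscle markers were near 0, summing to 0.0172 to 0.496 FPKM in WT and 0.337 to 1.01 FPKM in mutant livers.

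The long-chain acyl-CoA synthetases, which activate fatty acids, did not move together. Acsl4, whose product prefers arachidonate, was at 3.54, 3.27 and 3.59 FPKM in WT and 8.69, 8.02 and 8.28 FPKM in mutant livers, a log2 fold change of 1.06 (SE 0.055, limma adjusted p = 1.98e-05). It lies on chromosome X, from 142317993 to 142390535, and its log2 fold change was 0.91 under median-ratio scaling and 0.85 under quantile normalization. Acsl3 rose from 3.98 ± 0.111 to 6.82 ± 0.0577 FPKM (mean ± SD, n = 3). Acsl5 fell from 67.4 ± 2.05 to 60.9 ± 2.63 FPKM, a log2 fold change of -0.14 (limma adjusted p = 0.036) whose call was lost without WT liver 1, 2 or 3 or mutant liver 2 or 3, with limma adjusted p-values of 0.0524 to 0.105. With all livers kept, this call was also lost with no filter on low values, no trend or the replicate number as a block. The limma adjusted p-values there were 0.0509, 0.0672 and 0.0900. Acsl1, the major synthetase of liver, was at 17.9, 82.2 and 17.7 FPKM in WT and 37.4, 36.8 and 19.96 FPKM in mutant livers. WT liver 2 stood far above the other WT livers, the groups overlapped, and the 95% interval of the log2 fold change of Acsl1, -1.53 to 1.57, was the widest among the 49.

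Of the 8 acyl-CoA dehydrogenases and electron transfer flavoprotein genes, which carry out and drain the first oxidation of the spiral, 7 fell and 1 rose. Among all genes tested, 19.6% were lower and 37.4% higher. Acadl, the long-chain dehydrogenase, was at 192, 203 and 193 FPKM in WT and 72.2, 70.8 and 68.3 FPKM in mutant livers, a log2 fold change of -1.46 (SE 0.038, limma adjusted p = 1.11e-06). Acadvl, the very-long-chain dehydrogenase of the inner membrane, was at 168, 179 and 176 FPKM in WT and 108, 102 and 101 FPKM in mutant livers, a log2 fold change of -0.75. Acadm, the medium-chain dehydrogenase, fell from 93.2 ± 2.87 to 50.9 ± 1.36 FPKM (mean ± SD, n = 3), a log2 fold change of -0.86. By chain length, the fitted decrease was largest for the long-chain enzyme and smaller for the very-long- and medium-chain enzymes. Acads, the short-chain dehydrogenase, went the other way, at 50.7, 43.1 and 49.0 FPKM in WT and 57.0, 54.6 and 54.2 FPKM in mutant livers. Its log2 fold change was 0.21 (SE 0.067, limma adjusted p = 0.034), 0.04 under median-ratio scaling and -0.06 under quantile normalization, with limma adjusted p-values of 0.593 and 0.454. Its call was also lost without WT liver 3 or mutant liver 1, 2 or 3, with limma adjusted p-values of 0.0575 to 0.0983. The same held with no filter on low values (limma adjusted p = 0.056). Acad11, an acyl-CoA dehydrogenase of longer chains, fell from 22.0 ± 0.349 to 17.4 ± 0.847 FPKM. Electrons of these dehydrogenases pass to the electron transfer flavoprotein, a dimer of the Etfa and Etfb products. Etfa was at 211, 210.4 and 208 FPKM in WT and 109, 104 and 99.7 FPKM in mutant livers, a log2 fold change of -1.003 (SE 0.04, limma adjusted p = 6.82e-06). This stood at the 2-fold threshold and fell short of it without mutant liver 3 (-0.97) and without WT liver 1 (-0.9994). Etfb was at 290.1, 267 and 283 FPKM in WT and 225, 211 and 224 FPKM in mutant livers, a smaller log2 fold change of -0.35. Etfb shares 53.0% of its exon bases on the same strand with Etfbl, which was listed at 0 in all 6 livers, so its level is uncertain. Etfdh, which passes the electrons on to ubiquinone, fell from 33.9 ± 0.995 to 19.3 ± 0.311 FPKM, a log2 fold change of -0.78.

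All 7 genes listed for the later steps of the mitochondrial spiral fell, against 19.6% of all genes tested. Hadhb, the thiolase subunit of the trifunctional protein, was at 47.0, 33.9 and 48.9 FPKM in WT and 13.2, 8.02 and 12.9 FPKM in mutant livers, a log2 fold change of -1.85 (SE 0.22, limma adjusted p = 0.000756). Liver 2 was the lowest of its group in both genotypes. Hadha, the partner subunit with hydratase and dehydrogenase activity that starts at the other end of the 85-base interval printed above, fell from 50.5 ± 1.22 to 27.1 ± 1.07 FPKM (mean ± SD, n = 3), a log2 fold change of -0.87. Hadh, the short- and medium-chain hydroxyacyl-CoA dehydrogenase, was at 149, 142 and 152 FPKM in WT and 52.0, 49.3 and 49.2 FPKM in mutant livers, a log2 fold change of -1.54 (SE 0.042, limma adjusted p = 1.28e-06). Decr1, the dienoyl-CoA reductase needed for polyunsaturated chains, was at 78.3, 82.6 and 77.1 FPKM in WT and 38.4, 37.9 and 38.1 FPKM in mutant livers, a log2 fold change of -1.04. Acaa2, the medium-chain thiolase, had the highest mean level of the 49 in WT livers, with 818, 824 and 826 FPKM there and 438, 423 and 415 FPKM in mutant livers. Its log2 fold change of -0.95 (SE 0.028, limma adjusted p = 1.85e-06) stood just short of the 2-fold threshold. Eci1, an isomerase for unsaturated chains, fell from 72.6 ± 3.00 to 45.1 ± 0.669 FPKM, and Echs1, the short-chain hydratase, from 30.3 ± 0.263 to 24.2 ± 0.417 FPKM. Over these and the preceding 8 genes the summed FPKM was 2296 to 2313 in WT and 1245 to 1297 in mutant livers, 1.82-fold lower, and the median log2 fold change was -0.86.

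The 10 genes of peroxisomal β-oxidation did not share a direction. Of them 5 fell, against 19.6% of all genes tested, 2 rose, against 37.4%, and 3 did not pass the test. Their summed FPKM overlapped between groups, at 1144 to 1275 in WT and 1152 to 1248 in mutant livers. Ehhadh, the bifunctional hydratase and dehydrogenase of straight and dicarboxylic chains, was at 76.0, 85.2 and 77.3 FPKM in WT and 372, 371 and 375 FPKM in mutant livers. This was the largest increase among the 49 on the log2(FPKM + 1) scale, 4.69-fold in the means, with a log2 fold change of 2.22 (SE 0.048, limma adjusted p = 5.02e-07). Ehhadh lies on chromosome 16 from 21761287 to 21787807 and moved from place 14 to place 3 in the order of mean levels. Hsd17b4, the bifunctional enzyme for branched chains and bile acid precursors, rose from 62.8 ± 0.807 to 79.0 ± 0.744 FPKM (mean ± SD, n = 3), a log2 fold change of 0.33 that was 0.05 under quantile normalization (limma adjusted p = 0.201). The auxiliary enzymes for unsaturated chains fell. Decr2, the peroxisomal dienoyl-CoA reductase, was at 41.1, 40.5 and 42.4 FPKM in WT and 15.2, 14.8 and 14.2 FPKM in mutant livers, a log2 fold change of -1.43 (SE 0.042, limma adjusted p = 1.88e-06). Eci2, an isomerase, was at 32.1, 32.5 and 33.2 FPKM in WT and 12.2, 11.96 and 12.3 FPKM in mutant livers, a log2 fold change of -1.35 (SE 0.037, limma adjusted p = 1.35e-06). Among the thiolases, Acaa1b was at 451, 413 and 466 FPKM in WT and 230.2, 222 and 224 FPKM in mutant livers, a log2 fold change of -0.97 (limma adjusted p = 1.86e-05) that was -1.02 without WT liver 2. Acaa1a was at 52.3, 46.6 and 48.8 FPKM in WT and 50.3, 51.3 and 51.7 FPKM in mutant livers, with overlapping groups and a 95% interval of -0.068 to 0.18. Quantile normalization gave Acaa1a a log2 fold change of -0.21 (limma adjusted p = 0.0117). Transcripts of this pair share an identical run of 327 bases, longer than the 150-base reads, so the split of fragments between them is uncertain.

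Scp2, which encodes a sterol carrier and the thiolase for branched chains, was at 451, 375 and 455 FPKM in WT and 331, 325 and 412 FPKM in mutant livers. The groups overlapped through WT liver 2 and mutant liver 3, and the log2 fold change was -0.26 (SE 0.12, limma adjusted p = 0.102). Without WT liver 2 it was -0.36 (limma adjusted p = 0.0486) and without mutant liver 3 it was -0.37 (limma adjusted p = 0.0263). Acox2, the oxidase of branched chains and bile acid intermediates, fell from 34.2 ± 1.10 to 30.0 ± 1.80 FPKM (mean ± SD, n = 3), a call that was lost without WT liver 1, WT liver 3, mutant liver 2 or mutant liver 3 (limma adjusted p of 0.0842 to 0.0892). Amacr, the racemase that prepares branched chains, fell from 54.5 ± 0.852 to 48.0 ± 1.76 FPKM. Acox3 was low, with 0.885 ± 0.0927 and 1.41 ± 0.678 FPKM, and did not pass the test. In α-oxidation, the peroxisomal removal of 1 carbon from branched chains, the hydroxylase Phyh rose and the lyase Hacl1 fell. Phyh was at 435, 445 and 441 FPKM in WT and 546, 540.0 and 549 FPKM in mutant livers, a log2 fold change of 0.31 (limma adjusted p = 9.5e-05), and had the highest mean level of the 49 in mutant livers. Hacl1 went from 60.7 ± 1.22 to 55.1 ± 1.27 FPKM, a log2 fold change of -0.14 whose call was lost without WT liver 1, mutant liver 1 or mutant liver 3, with limma adjusted p-values of 0.0509 to 0.0593. The same held with the replicate number as a block (limma adjusted p = 0.0540). Hacl1 shares 31.1% of its exon bases with Gm49387, which was at 0 to 0.123 FPKM.

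The acyl-CoA thioesterases, which release free fatty acids from CoA, went both ways within 1 gene cluster. Acot1 to Acot4 lie side by side on chromosome 12 between 83987861 and 84060402. Acot1, the cytosolic form, was at 0.920, 1.49 and 0.765 FPKM in WT and 5.72, 5.25 and 5.57 FPKM in mutant livers, 5.21-fold higher in the means, with a log2 fold change of 1.68 (SE 0.13, limma adjusted p = 0.000127). By the ratio of means, and with a pseudocount of 0.1 (log2 fold changes of 2.33 and 2.23), Acot1 stood above Ehhadh. Acot2, the mitochondrial form, was at 4.47, 3.33 and 4.81 FPKM in WT and 4.58, 4.02 and 4.07 FPKM in mutant livers, with overlapping groups and a 95% interval of -0.28 to 0.31. The peroxisomal forms Acot3 and Acot4 fell from 5.89 ± 0.454 to 2.84 ± 0.102 FPKM and from 12.1 ± 0.433 to 7.90 ± 0.554 FPKM. Transcripts of Acot1 share identical runs of 273 bases with Acot2 and 203 bases with Acot3, longer than a read, so their levels are uncertain. Outside the cluster, Acot12, a cytosolic acetyl-CoA hydrolase, fell from 24.8 ± 1.08 to 14.0 ± 0.493 FPKM, and Acot8, a peroxisomal form, rose from 5.65 ± 0.471 to 8.19 ± 0.376 FPKM.

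Among the 5 peroxins, 2 rose, against 37.4% of all genes tested, and 3 did not pass the test; their median log2 fold change was 0.08, against 0.14 for all genes, so the count is near the background. Pex5, the receptor that imports most peroxisomal enzymes, rose from 12.6 ± 1.12 to 23.2 ± 0.287 FPKM (mean ± SD, n = 3), a log2 fold change of 0.84 (SE 0.067, limma adjusted p = 0.000132). Pex11a, which acts in peroxisome elongation and division, rose from 7.45 ± 0.518 to 12.2 ± 1.63 FPKM. Pex7, the receptor for the second import signal, used by Phyh and the Acaa1 thiolases, was at 3.93, 3.42 and 4.05 FPKM in WT and 4.41, 4.15 and 3.67 FPKM in mutant livers, with overlapping groups and a 95% interval of -0.13 to 0.29. Pex14, the docking protein, was at 10.5 ± 0.533 and 9.85 ± 0.435 FPKM, with limma adjusted p-values of 0.226 and, under both scalings, of 0.0092 and 0.0019. Pex19, the chaperone of peroxisomal membrane proteins, was at 28.1, 28.7 and 28.4 FPKM in WT and 22.7, 12.8 and 22.2 FPKM in mutant livers. Its groups did not overlap, mutant liver 2 stood far below the other mutant livers, and the limma adjusted p was 0.0562. Without mutant liver 2 the log2 fold change of Pex19 was -0.33 (limma adjusted p = 0.00251) and without mutant liver 1 it was -0.72 (limma adjusted p = 0.0462).

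In 6 pairs, genes whose products work as partners or in sequence changed by unequal amounts. This shows in ratios of FPKM within each liver and does not depend on a scaling factor of the library. The 6 pairs were chosen after their values were seen and are given without a test. The ratio of Ehhadh to Hsd17b4, the bifunctional enzymes of the peroxisome, was 1.22 to 1.35 in WT and 4.67 to 4.80 in mutant livers. The ratio of Acaa1b to Acaa1a was 8.62 to 9.54 in WT and 4.33 to 4.58 in mutant livers. Within 1 complex, the ratio of Etfb to Etfa was 1.27 to 1.37 in WT and 2.03 to 2.25 in mutant livers. The levels of Acaa1a, Acaa1b and Etfb are uncertain through shared sequence, as given above, and so are the ratios that use them. The ratio of Hadha to Hadhb was 1.03 to 1.53 in WT and 2.01 to 3.45 in mutant livers, with liver 2 the highest of each group. Along the shuttle and the chain lengths, the ratio of Cpt2 to Cpt1a was 0.584 to 0.642 in WT and 1.77 to 1.99 in mutant livers, and that of Acads to Acadl was 0.213 to 0.264 and 0.771 to 0.795. The 6 ratios did not overlap between the groups, but the pairs were picked with their values known, so this count is not a result about such pairs.

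**Figure D4:**
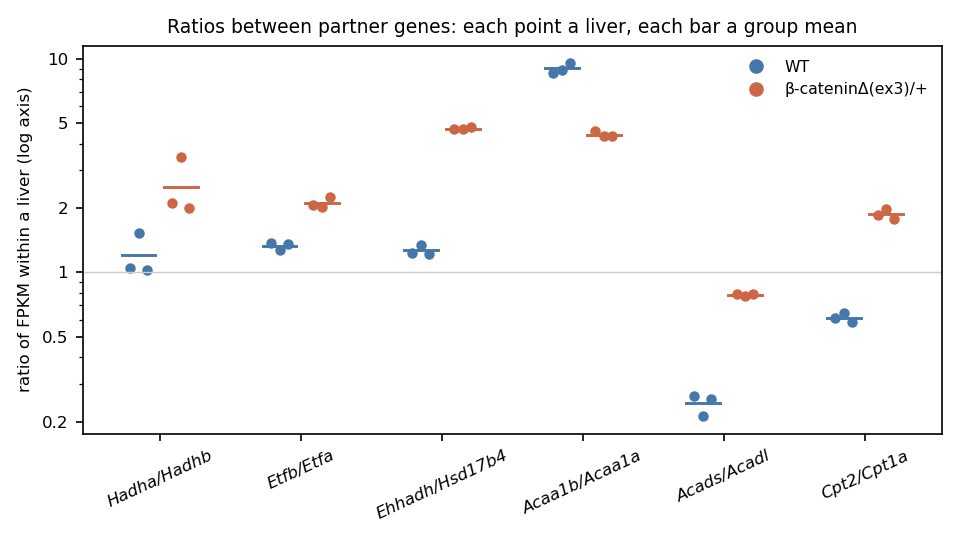
Ratio of FPKM within each liver (log axis) for 6 pairs of genes, 1 point per liver and a bar at each group mean (n = 3 per group). Mutant livers lie above WT livers in 5 pairs, with means of 4.71 against 1.27 for Ehhadh over Hsd17b4, and below them for Acaa1b over Acaa1a, with means of 4.41 against 9.01. The levels of Acaa1a, Acaa1b and Etfb are uncertain through shared sequence.

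Replicates were close for most of the 49 genes, with a median coefficient of variation of 3.65% in WT and 3.57% in mutant livers. It was over 20% for Acsl1, Cpt1b and Acot1 in WT livers and for Cpt1b, Acox3, Acsl1, Pex19 and Hadhb in mutant livers. A mean of at least 100 FPKM was reached by 12 of the 49 in WT and by 8 in mutant livers.

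Other genes of the same pathways, 82 by a list drawn up with the 49, gave the following counts. Of the 78 that were tested, 9 were higher, against 8.17% of all genes tested, and 11 lower, against 4.52%, past both thresholds. At an adjusted p under 0.05 with any fold change 29 of the 78 were higher, against 37.4%, and 30 lower, against 19.6%, with a median log2 fold change of 0.0025 against 0.14 for all genes. Slc16a1, Aacs and Acss2 handle ketone bodies, acetoacetate and acetate. Slc16a1, a carrier of ketone bodies and lactate, fell from 32.2 ± 0.225 to 10.6 ± 0.357 FPKM (mean ± SD, n = 3). Aacs, which activates acetoacetate for lipid synthesis in the cytosol, rose from 1.29 ± 0.102 to 22.2 ± 0.706 FPKM, a log2 fold change of 3.34. Acss2, which activates acetate, rose from 1.13 ± 0.0728 to 23.1 ± 0.687 FPKM, a log2 fold change of 3.503. Acacb, whose product makes the malonyl-CoA that inhibits carnitine palmitoyltransferase 1, rose from 0.212 ± 0.0352 to 5.63 ± 0.406 FPKM.

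Of the 20 tested genes listed as PPARα, its partners and known targets, 12 were lower, against 19.6% of all genes tested, and 5 higher, against 37.4%, at an adjusted p under 0.05, with a median log2 fold change of -0.48. The targets with the largest decreases were Cyp4a14, Fgf21 and Cyp4a31. Cyp4a14, an ω-hydroxylase of fatty acids, was at 227, 242 and 231 FPKM in WT and 3.598, 3.36 and 2.87 FPKM in mutant livers, a log2 fold change of -5.78 (SE 0.072, limma adjusted p = 5.9e-08). Fgf21, a hormone of the fasted liver, was at 41.3, 42.7 and 43.4 FPKM in WT and 0.110, 0.344 and 0 FPKM in mutant livers. Cyp4a31 fell from 61.8 ± 0.833 to 2.40 ± 0.901 FPKM. In the same list Cidec and Cyp4a12a rose past both thresholds, from means of 0.776 to 2.99 FPKM and from 0 to 1.37 FPKM. The Cyp4a family has close copies, so the levels of these Cyp4a genes are uncertain, though their shared sequence was not measured here. Ehhadh is also a known target of PPARα, and it rose in the same livers. The part of PPARα in these differences was not tested. Ppara itself, named after its values were seen, fell from 5.598 ± 0.292 to 2.81 ± 0.139 FPKM, a log2 fold change of -0.79 (limma adjusted p = 9.55e-05). Among the other peroxisomal genes, the hydroxyacid oxidases Hao2 and Hao1 fell from 65.0 ± 3.04 to 0.148 ± 0.0769 FPKM and from 170.2 ± 2.08 to 60.7 ± 1.03 FPKM, the fatty acyl-CoA transporter Abcd2 fell from 24.2 ± 0.445 to 5.03 ± 0.521 FPKM, and Nudt7, which breaks down CoA, rose from 6.70 ± 0.413 to 44.8 ± 1.09 FPKM. The limma adjusted p of the 11 genes named here by size of change lay between 4.88e-08 and 1.38e-05.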

How the data were processed

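RNA of 3 WT and 3 β-cateninΔ(ex3)/+ livers was sequenced as paired 150-base reads, and the authors deposited FPKM for 31950 genes in 1 table. The authors' processing notes name cutadapt 1.9, HISAT2 2.0.4, StringTie 1.3.4d, DESeq2 and edgeR; the build, annotation and filters are not given in the sources used here, but 28911 genes have the bounds of GENCODE M21 (GRCm38). FPKM are not counts, so count models were left out and no counting intervals are given. From the deposited FPKM, log2(FPKM + 1) was modelled over the 6 livers in limma 3.58.1 (R 4.3.3; lmFit and trended eBayes) for the 13243 genes that averaged 0.5 FPKM or more, with Benjamini-Hochberg adjustment over all of them. Fold changes on this scale understate those of genes with low FPKM. Genes were called at an adjusted p under 0.05, with and without a fold change of at least 2; an exact permutation test of 3 against 3 cannot go below 0.1.

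Livers were grouped by their labels, which do not say whether they came from separate litters or batches, so p-values measure the spread between these livers only. The genes and the role, pathway and marker lists were chosen with earlier results of these data known. Each of the 49 genes is named; those past both thresholds, with a mean of at least 100 FPKM in either group or turned round by an alternative have the value of each liver, and other pathway genes past both thresholds are named up to 12 by size of change, of which 1 is not reported here. The values printed for Pex19 in each liver and the naming of Cidec and Cyp4a12a go beyond this rule. Alternatives were quantile normalization, median-ratio scaling, a pseudocount of 0.1, a filter at a mean of 1 FPKM or none, no trend, the replicate number as a block, and each liver left out in turn. The authors' ChIP-seq was not analysed here. Python 3.11.15, pandas 2.3.3, numpy 2.4.6 and matplotlib 3.10.9 were used for tables and figures.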

Additional observations from a re-analysis of the deposited data

How the results depend on the processing

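Of 636 values of the 49 genes under 13 alternatives, 580 kept their direction and their side of the adjusted p of 0.05. With the sign kept, 13 gained a call and 23 lost one, and 20 changed sign, in 7 genes. Sign changes were counted apart even where a call changed too, as for Acaa1a and Acads under quantile normalization. The count of genes lower past both thresholds went from 11 to 19 under quantile normalization, which moved the median of all genes by -0.16. The share over all genes went from 4.52% to 6.13%. Acaa1b, Acaa2, Acadm, Acot3, Acot12, Crat, Etfdh and Hadha were added. Why the count rose was not tested. Leaving out 1 liver gave 10 to 12 lower and 3 higher. Signs changed under median-ratio scaling for Acsl1 (-0.15), Acaa1a (-0.12), Acot2 (-0.13) and Pex7 (-0.059), under quantile normalization for Acsl1 (-0.26), Acads (-0.060), Acaa1a (-0.21), Acot2 (-0.17) and Pex7 (-0.099), and with a pseudocount of 0.1 for Cpt1b (0.080). Leaving out 1 liver, the log2 fold change ranged from -0.35 to 0.73 for Acsl1, -0.46 to 0.14 for Cpt1b, -0.083 to 0.0011 for Cpt2 and -0.11 to 0.10 for Acot2; the cause was not tested. With the replicate number as a block, 3 genes were higher and 11 lower past both thresholds and 10 and 28 at any fold change. Across genes, the deviations of livers of the same number from their group means had correlations of 0.0268, 0.0213 and -0.0054. With so few livers, and over all genes at once, these correlations cannot decide whether the numbers pair livers, and the labels do not say. Depth is known only as an estimate, and levels under 2 FPKM (Acox3, Cpt1b and Acot1 in WT livers) are the least precise.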
